A study of Homo sapiens with 5 samples.

Results

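The 48 genes described here act in G2 phase and mitosis, and they were listed by symbol for their known roles, by a rule that names no measured value but with earlier results of these data known. All 48 were among the 15266 human genes listed in every library, and they lie on 18 chromosomes. They were measured in single SW480 cells recovered from zebrafish xenografts. SW480 is a human colorectal cancer cell line from a primary tumor. The cells carried GFP from a lentiviral vector and were injected into zebrafish embryos, whose innate immunity was active. The tumors were dissected 1 day post injection (dpi), before selection by the host was thought to have acted on the cells, or 4 dpi, after it. A pool of tumors was dissociated and sorted into 384-well plates for SORT-seq, which counts messenger RNA 3′ ends with unique molecular identifiers (UMIs), 1 cell per well. The 3 plates of 1 dpi are libraries 6, 7 and 8, and the 2 plates of 4 dpi are libraries 10 and 11. Neither time point had a drug or a further genetic change, and tumors still present at 4 dpi are a selected group. Sources do not say which tumors went to which plate, so p-values measure the spread between libraries, which may be technical.

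Entry into mitosis is driven by the kinase CDK1 with cyclin A or B, and exit follows when the anaphase-promoting complex, a ubiquitin ligase, marks the cyclins and securin for destruction. Between those steps the centrosomes, kinetochores and motor proteins build the spindle, and the chromosomes are condensed and untangled. Transcripts of many of these genes accumulate together from late S phase to mitosis. Many of their promoters carry a cell cycle genes homology region (CHR), read by the DREAM repressor complex in resting cells and by the B-MYB and FOXM1 activators later, often with CCAAT boxes bound by NF-Y.

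Of the 48 genes, 42 had an entry in the RefSeq promoter table (GRCh38.p14), which gives 250 bases before and 50 after each gene's start. A CHR, searched as TTTGAA or TTCGAA on either strand, was in 29 of these 42 promoters (69.0%), against 16.6% of 27305 promoters in all. CCAAT on either strand was in 31 (73.8%), against 35.7% of all promoters, and 20 members (47.6%) held at least 2 copies, against 11.3% of all. Both motifs were present in 57.1% of the members' promoters and 6.58% of all promoters. Letters alone do not show binding. The median log2 change between time points was 0.94 for the 29 members with the motif and 0.92 for the 13 without it. Shown here are the 4 CHR-bearing promoters of the genes whose levels over cells followed those of the other members together most closely. They are MKI67 (chr10:128126374-128126673, minus strand), CENPF (chr1:214602945-214603244, plus strand), CDK1 (chr10:60778081-60778380, plus strand) and PRC1 (chr15:90994486-90994785, minus strand), each 5′ to 3′ along the gene, with CHR and CCAAT motifs in capitals.
MKI67: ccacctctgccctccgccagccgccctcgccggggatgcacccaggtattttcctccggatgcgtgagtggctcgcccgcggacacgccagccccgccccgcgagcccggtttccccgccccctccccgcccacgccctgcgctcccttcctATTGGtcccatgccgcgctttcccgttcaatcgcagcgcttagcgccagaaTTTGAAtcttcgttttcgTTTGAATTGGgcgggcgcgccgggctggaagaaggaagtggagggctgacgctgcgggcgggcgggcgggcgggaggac
CENPF: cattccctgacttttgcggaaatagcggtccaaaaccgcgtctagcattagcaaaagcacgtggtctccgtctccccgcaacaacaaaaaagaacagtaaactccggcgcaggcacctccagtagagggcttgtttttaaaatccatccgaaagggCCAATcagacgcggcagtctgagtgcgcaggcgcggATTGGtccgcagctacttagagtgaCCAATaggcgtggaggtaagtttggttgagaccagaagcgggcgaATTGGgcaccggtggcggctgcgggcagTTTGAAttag
CDK1: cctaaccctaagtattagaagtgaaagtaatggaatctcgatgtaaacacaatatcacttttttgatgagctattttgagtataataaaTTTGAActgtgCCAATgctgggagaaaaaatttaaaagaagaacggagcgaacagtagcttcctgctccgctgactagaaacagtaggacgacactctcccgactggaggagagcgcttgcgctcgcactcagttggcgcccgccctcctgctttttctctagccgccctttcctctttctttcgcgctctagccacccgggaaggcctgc
PRC1: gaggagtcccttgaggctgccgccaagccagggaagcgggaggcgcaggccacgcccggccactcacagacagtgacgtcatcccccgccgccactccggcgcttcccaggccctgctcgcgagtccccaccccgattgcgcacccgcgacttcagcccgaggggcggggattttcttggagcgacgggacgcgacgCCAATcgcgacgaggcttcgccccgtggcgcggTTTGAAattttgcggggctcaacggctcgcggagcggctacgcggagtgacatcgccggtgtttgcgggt
The promoter of CENPF held 4 CCAAT boxes and that of MKI67 held 2, of which the second overlaps a CHR. CDK1 and PRC1 each had 1 CCAAT box.

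A well was kept as a cell if over 2000 genes and under 25% mitochondrial UMIs were found in it. Of 384 wells this left 228, 142 and 163 cells in the plates of 1 dpi (6, 7, 8) and 132 and 161 in those of 4 dpi (10, 11). The medians over cells were 18823 to 36197 UMIs, with library 11 the shallowest. All 10 colon epithelial markers examined, among them EPCAM and KRT8, were above 1 CPM (UMIs scaled to a common library total) in every library. Between the times 1 of these 10 rose (EPCAM, log2 change 0.25) and 4 fell (CDH1 most, -0.73) by edgeR, with a median of -0.38, and DESeq2 called 1 higher and 2 lower. Of all 12610 genes tested by edgeR, 13.4% rose and 14.2% fell. The summed level of 8 kept markers of myeloid and other blood cells, of 12 examined, was 27.6 to 35.0 CPM at 1 dpi and 10.6 to 13.1 CPM at 4 dpi. Single markers were scarce, and LYZ had 0.93 to 1.47 CPM at 1 dpi against 2.27 CPM in library 10 and 1.06 CPM in library 11. PTPRC, MPO, TYROBP and HBB were not among the kept genes. Of 4 of the markers that could be tested, 3 fell by edgeR and 1 by DESeq2, ITGAM most, from 10.4 ± 2.2 CPM (SD, n = 3) to 1.79 ± 0.043 CPM (SD, n = 2). ITGAM and FCER1G passed the filter on low counts only through their libraries of 1 dpi, so the falls of these markers are not read as a result. The part of these markers in the results on the mitotic genes was not tested. All plates used the same 384 well barcodes.

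The first question was whether the mitotic genes differed in level between 1 and 4 dpi, and almost all were higher at 4 dpi. The UMIs of each library's cells were added up, and edgeR's quasi-likelihood test was run on 12610 genes, all 48 members among them, with Benjamini-Hochberg adjustment. At an adjusted p under 0.05, 44 of the 48 rose and 0 fell, whereas 13.4% of all genes tested rose and 14.2% fell. No member had an unadjusted p under 0.05 in the direction of a fall, and DESeq2 also called 0 lower. The median log2 change of the members was 0.93, against 0.0019 for all genes tested. In 45 members both libraries of 4 dpi lay above all 3 libraries of 1 dpi, an arrangement seen in 27% of all genes tested. Sums over cells cannot tell more cells with a transcript from more transcripts per cell, which is taken up further on. Within flow cell A (library 10 against 6 and 7) 47 members had a positive difference, with a median log2 difference of 0.89, and within flow cell B (library 11 against 8) 46 did, with a median of 1.12, without a test. With cells of 15% or more mitochondrial UMIs left out, 35 members rose and the median was 0.73.

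**Figure D1:**
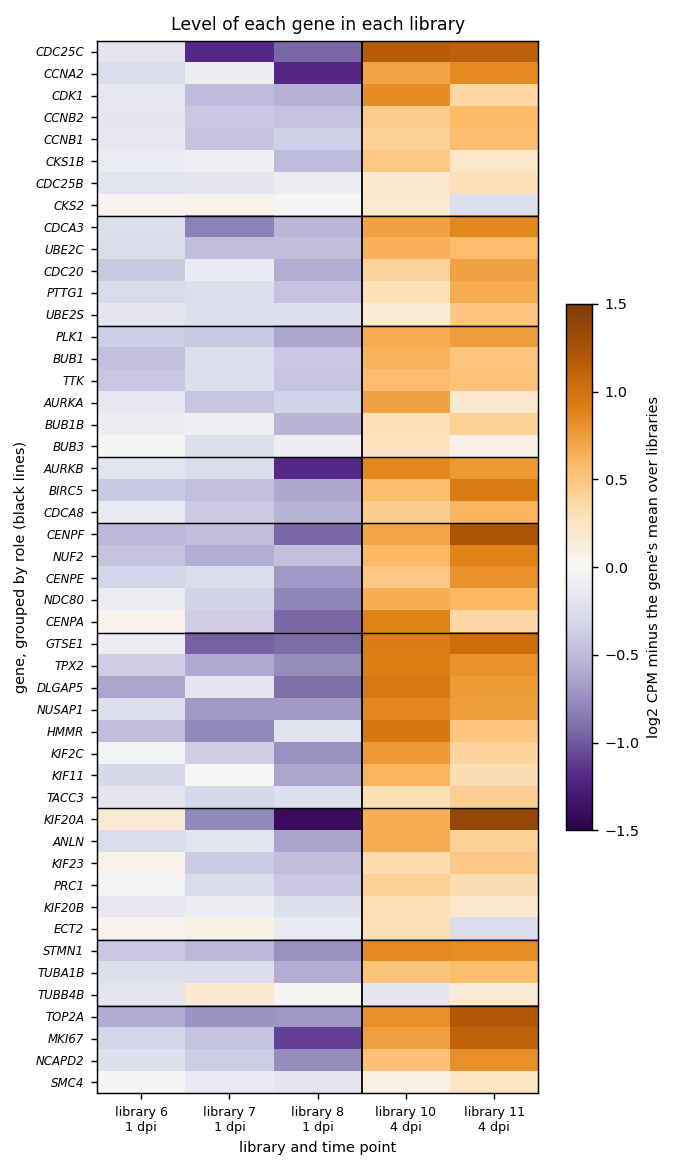
Level of each of the 48 genes (rows, grouped by role) in each library (columns, 3 of 1 dpi and 2 of 4 dpi), as log2 CPM minus the gene's mean over the 5 libraries. Libraries 10 and 11 lie above the 3 libraries of 1 dpi in 45 rows, and CKS2, ECT2 and TUBB4B are the rows that overlap.

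The 6 members with the greatest rises covered chromosome untangling, the kinetochore, the spindle, cytokinesis and the entry switch. TOP2A, topoisomerase IIα, which untangles sister chromatids, stood at 47.1, 43.1 and 43.7 CPM at 1 dpi (libraries 6, 7, 8, the order used throughout) and at 126 and 164 CPM at 4 dpi (10, 11). Its lowest 4 dpi library was thus far above its highest 1 dpi library, with a log2 change of 1.69 ± 0.12 (SE; edgeR, adjusted p = 2.3e-07). CENPF, a large protein of the outer kinetochore that accumulates in G2, had 95.2, 97.4 and 70.1 CPM at 1 dpi and 219 and 320 CPM at 4 dpi. The groups did not overlap (log2 change 1.61 ± 0.15 SE; edgeR, adjusted p = 2.4e-06), and library 11 was well above library 10. MKI67, which encodes the proliferation antigen Ki-67 that coats mitotic chromosomes, had 51.5, 47.6 and 30.2 CPM at 1 dpi and 107 and 141 CPM at 4 dpi. Library 8 was the lowest for MKI67, and the groups stayed apart (log2 change 1.50 ± 0.17 SE; edgeR, adjusted p = 1.7e-05).

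The other members of these 6 were scarce transcripts. CDC25C, the phosphatase that activates CDK1 at mitotic entry, had 5.35, 2.66 and 3.15 CPM at 1 dpi and 13.6 and 13.3 CPM at 4 dpi, and rested on 69 and 105 UMIs in all. Its log2 change of 1.79 ± 0.30 SE was the highest of the 48 (edgeR, adjusted p = 0.00045), with no overlap of the groups. GTSE1, a microtubule-binding protein of G2 and S phase cells, had 10.8, 5.88 and 6.09 CPM at 1 dpi and 21.9 and 23.7 CPM at 4 dpi. KIF20A, a motor of the central spindle, had 10.6, 5.51 and 3.57 CPM at 1 dpi and 14.9 and 24.2 CPM at 4 dpi. Neither gene's groups overlapped, but the libraries of 1 dpi spread over a wide range, and the SE of the log2 change was 0.25 for GTSE1 (1.53; edgeR, adjusted p = 0.00035) and 0.33 for KIF20A (1.50; edgeR, adjusted p = 0.0033).

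Among CDK1, its cyclins and its regulators, 7 of 8 members rose. CDK1, the kinase itself, had 65.1, 51.6 and 49.1 CPM at 1 dpi and 129 and 93.7 CPM at 4 dpi, which was 2.01-fold higher by the ratio of group means (log2 change 1.00 ± 0.15 SE). CCNA2, cyclin A2, which acts from S phase to early mitosis, rose by a log2 change of 1.22. CCNB1 and CCNB2, the mitotic B cyclins, rose less, by 0.78 and 0.85. CKS1B and CKS2 are small subunits that bind CDKs, and they went separate ways. CKS1B rose by 0.56, while CKS2, the most abundant of this group, had 188, 193 and 181 CPM at 1 dpi and 205 and 156 CPM at 4 dpi. Its 4 dpi libraries enclosed all those of 1 dpi (log2 change -0.05 ± 0.11 SE; edgeR, adjusted p = 0.75). CDC25B, a phosphatase related to CDC25C that starts CDK1 activation at the centrosome, rose by only 0.39. CKS2, CKS1B and several other members (TUBA1B, TUBB4B, UBE2C, UBE2S, STMN1, PTTG1 and BUB3) have near-identical copies elsewhere in the genome, so their counts are uncertain to that extent.

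All 5 genes around the anaphase-promoting complex rose. UBE2S, the conjugating enzyme that lengthens ubiquitin chains, was the most abundant, with 196, 188 and 188 CPM at 1 dpi and 243 and 308 CPM at 4 dpi. UBE2C, which starts those chains, had 62.1, 53.3 and 53.1 CPM at 1 dpi and 115 and 110 CPM at 4 dpi. The libraries within each time point were close together for UBE2C, and the log2 change was 0.99 ± 0.11 (SE; edgeR, adjusted p = 1.8e-05). CDC20, the activator of the complex in metaphase, rose by 0.92, and PTTG1, the securin that holds separase in check, by 0.81. CDCA3, an F-box-like trigger of mitotic entry and the scarcest of the group, had 7.89, 5.32 and 6.51 CPM at 1 dpi and 15.4 and 16.9 CPM at 4 dpi. Of 15 tested subunits of the complex itself, 0 rose by edgeR and 1 fell, CDC16, from 161 ± 11 CPM (SD, n = 3) to 132 ± 1.9 CPM (SD, n = 2), and the median log2 change of these 15 was -0.11. At an unadjusted p under 0.05, 1 of the 15 was higher and 3 were lower by edgeR, and DESeq2 called 0 in either direction. The difference from the members was not tested.

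Of the 6 mitotic kinases and checkpoint genes, 5 rose. PLK1, a kinase of centrosome maturation, spindle assembly and cytokinesis, had 45.8, 45.0 and 38.4 CPM at 1 dpi and 94.4 and 99.7 CPM at 4 dpi (log2 change 1.17 ± 0.12 SE; edgeR, adjusted p = 5.4e-06). AURKA, the centrosomal Aurora kinase, rose by 0.77, but its 4 dpi libraries of 90.1 and 62.2 CPM were far apart. The checkpoint kinases BUB1 and TTK, which delay anaphase until kinetochores are attached, rose by 0.94 and 0.91. BUB1B, the checkpoint protein BubR1, was the scarcest of the 6 by its mean over libraries, with 25.4, 25.6 and 18.7 CPM at 1 dpi and 33.0 and 35.9 CPM at 4 dpi. BUB3, which carries BUB1 and BUB1B to kinetochores and was the most abundant, had 163, 141 and 156 CPM at 1 dpi and 198 and 175 CPM at 4 dpi. Its groups did not overlap, yet the change of 0.28 ± 0.10 SE missed the threshold (edgeR, adjusted p = 0.053). It was called in 5 of 16 alternatives, one of them with flow cell as a term (edgeR, adjusted p = 0.044), and adjusted p ranged from 0.036 to 0.33.

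The 3 chromosomal passengers, which correct faulty attachments and then move to the midzone, all rose. AURKB, the kinase of the complex, had 20.6, 19.6 and 10.3 CPM at 1 dpi and 42.8 and 40.1 CPM at 4 dpi. Library 8 was low here as well, and the 4 dpi libraries lay above all others (log2 change 1.27 ± 0.21 SE). BIRC5, survivin, rose by 1.25. CDCA8, borealin, was the scarcest of the 3 by its mean over libraries, with 18.6, 15.4 and 13.9 CPM at 1 dpi and 27.4 and 31.0 CPM at 4 dpi. At 1 dpi alone BIRC5 was scarcer, with a mean of 14.0 CPM against 15.9 CPM for CDCA8. INCENP, the scaffold of the same complex, was no member and had the greatest called rise of the other G2 and mitosis genes, but it was scarce. It had 0.67, 1.71 and 1.47 CPM at 1 dpi and 3.27 and 3.90 CPM at 4 dpi. Only its libraries of 4 dpi were high enough for the filter on low counts, so its call is not read as a result.

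At the centromere and kinetochore all 5 members rose, with a median log2 change of 1.05. CENPE, the kinesin that brings chromosomes to the spindle equator, rose by 1.05. NDC80 and NUF2 are partners in the complex that grips microtubules, and they rose by 0.98 and 1.23. NUF2, the scarcest of the 5 by its mean over libraries, had 13.2, 12.0 and 13.0 CPM at 1 dpi and 26.9 and 33.1 CPM at 4 dpi. CENPA, the histone H3 variant that marks centromeres, had 18.9, 14.1 and 9.45 CPM at 1 dpi and 33.7 and 23.2 CPM at 4 dpi. Its values spread widely within both time points (log2 change 0.98 ± 0.24 SE; edgeR, adjusted p = 0.0066).

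All 8 spindle motors and proteins rose, with a median log2 change of 1.27. TPX2, which nucleates microtubules and activates AURKA, was the most abundant, with 47.9, 40.4 and 36.5 CPM at 1 dpi and 117 and 108 CPM at 4 dpi. The groups were well apart (log2 change 1.42 ± 0.12 SE; edgeR, adjusted p = 1.3e-06). DLGAP5 (HURP) and NUSAP1, which bundle spindle microtubules, rose by 1.41 and 1.31, and HMMR, which anchors the spindle at its poles, by 1.22. The motors rose less. KIF2C, which removes tubulin from microtubule ends, changed by 0.92, and KIF11 (Eg5), which pushes the poles apart, by 0.75. TACC3, which crosslinks spindle fibers, had the lowest change of the group, 0.61 ± 0.13 SE.

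Central spindle and cytokinesis genes split within the group, with 5 of 6 called. ANLN, anillin, the scaffold of the contractile ring and the most abundant, had 93.5, 98.3 and 72.2 CPM at 1 dpi and 178 and 150 CPM at 4 dpi (log2 change 0.89 ± 0.13 SE). PRC1, which bundles the antiparallel microtubules of the midzone, rose by 0.60. KIF23, the motor of the centralspindlin complex, rose by 0.63, and KIF20B by 0.39. ECT2, the exchange factor that switches on RHOA at the cleavage furrow, had 73.3, 75.6 and 65.7 CPM at 1 dpi and 87.3 and 59.6 CPM at 4 dpi. Here library 11 was the lowest of all and library 10 the highest (log2 change 0.04 ± 0.14 SE; edgeR, adjusted p = 0.87).

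The 3 genes of microtubule supply gave unlike results. TUBA1B, the most abundant α-tubulin, had 806, 796 and 635 CPM at 1 dpi and 1358 and 1402 CPM at 4 dpi (log2 change 0.89 ± 0.10 SE; edgeR, adjusted p = 1.8e-05). STMN1, stathmin, which holds free tubulin and is switched off in mitosis, had 135, 127 and 109 CPM at 1 dpi and 325 and 320 CPM at 4 dpi. Its 4 dpi libraries nearly coincided, 2.61-fold above the 1 dpi mean (log2 change 1.38 ± 0.10 SE; edgeR, adjusted p = 2.5e-07). TUBB4B, a β-tubulin, had 142, 183 and 163 CPM at 1 dpi and 143 and 177 CPM at 4 dpi, with full overlap (log2 change -0.02 ± 0.12 SE; edgeR, adjusted p = 0.91). Of 9 other tubulins tested, 2 rose and 2 fell. TUBB rose most among them, from 328 ± 29 to 480 ± 2.3 CPM (SD, n = 3 and n = 2), and TUBA1C fell most, from 403 ± 18 to 316 ± 11 CPM.

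Chromosome genes all rose, but to very different degrees. NCAPD2, a subunit of condensin I, had 79.6, 71.0 and 54.6 CPM at 1 dpi and 134 and 163 CPM at 4 dpi (log2 change 1.11 ± 0.14 SE). SMC4, the ATPase shared by both condensins and the most abundant of the 4, had 196, 183 and 176 CPM at 1 dpi and 212 and 234 CPM at 4 dpi. The groups did not overlap, and the call was marginal (log2 change 0.27 ± 0.10 SE; edgeR, adjusted p = 0.049). It was lost in 8 of 16 alternative settings, with adjusted p between 0.026 and 0.30. In all, 27 of the 44 rises were called in each of the 16 alternatives. All 44 kept a positive sign wherever they were tested, which for CDCA3 was in 15 of the 16.

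**Figure D2:**
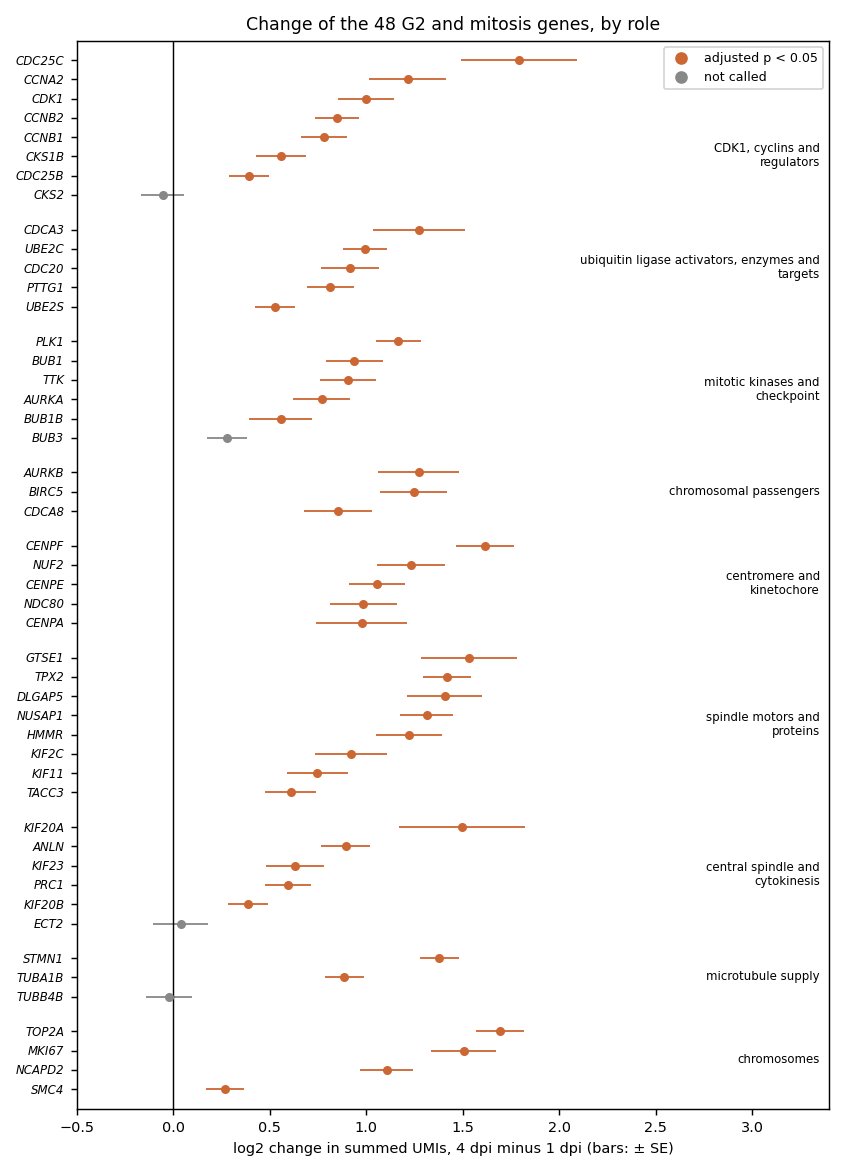
Log2 change in summed UMIs between 1 and 4 dpi (x axis) of each of the 48 genes (y axis), grouped by role, with bars of ± 1 SE and orange points for an adjusted p under 0.05. CKS2, BUB3, ECT2 and TUBB4B are the grey points, and CDC25C, TOP2A and CENPF lie farthest to the right.

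Lists of other cell cycle genes are given beside the members, to be read against the 13.4% of all genes that rose and the 14.2% that fell. Of 57 other genes of G2 and mitosis, 35 rose and 0 fell by edgeR, with a median log2 change of 0.61, and 0 were lower at an unadjusted p under 0.05 or by DESeq2. The 35 include INCENP, whose call is not read. Whether other scarce genes among them passed the filter on low counts only through 4 dpi was not examined. Of 42 S phase genes, 7 rose and 1 fell by edgeR, and 4 rose and 1 fell by DESeq2, with a median of 0.12, so that the share of them that rose was near that of all genes. TK1, thymidine kinase, which peaks late and is destroyed in mitosis, rose most of these, from 18.4 ± 4.7 CPM (SD, n = 3) to 51.8 ± 12 CPM (SD, n = 2), and MCM6, a subunit of the replicative helicase, fell from 90.5 ± 3.6 to 70.1 ± 1.3 CPM. Among 12 CDK inhibitors and genes of resting cells, 5 rose and 0 fell by edgeR, 0 were lower at an unadjusted p under 0.05, and 0 fell by DESeq2. The greatest rise there was of CDKN1C, the inhibitor p57, from 20.6 ± 1.7 CPM to 50.1 ± 13 CPM. The differences between these lists were not tested.

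A rise in summed UMIs can come from more cells with a transcript or from more transcripts in those cells, so each cell was thinned to 5000 UMIs, which kept 815 of 826 cells. For each gene the share of cells with at least 1 UMI and the mean UMIs among those cells were then compared. The shares of 44 members could be tested, since CDC25C, CDCA3, KIF20A and GTSE1 were seen in under 5% of cells. Of these 44, 4 (AURKB, CDCA8, DLGAP5 and NUF2) were in under 5% of the cells of 1 dpi and passed through their cells of 4 dpi. Over all 48 members, with no filter, the mean share was higher at 4 dpi in 44, and in 35 both libraries of 4 dpi were above all those of 1 dpi, against 19.9% of the 12610 genes. In 1 member, CKS2, both were below, as was found after its values were seen. Single genes rarely passed the test: 2 members were called higher and 0 lower (edgeR), against 0.406% higher and 0.485% lower of the 8872 genes tested. At an unadjusted p under 0.05, edgeR had 22 of the 44 members higher and 0 lower, against 8.54% of all genes tested that were higher. The mean among cells with a UMI could be tested for 41 members, and 36 had a positive log2 change, with a median of 0.26 against 0.01 for all 8483 genes tested. With limma, 8 of the 41 were called higher and 0 lower, against 1.01% higher and 0.413% lower of all genes. In 26 members the mean at 4 dpi lay above all libraries of 1 dpi, against 16.5% of genes tested. At an unadjusted p under 0.05, limma had 22 members higher and 0 lower, against 8.18% of all genes tested that were higher. The mean among cells with a UMI cannot be below 1, which limits its change in scarce genes, and a gene with more molecules per cell is also seen in more cells, so the sizes of both changes are not compared.

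STMN1 was higher by both measures. It had a UMI in 37.6%, 39.3% and 31.2% of cells at 1 dpi and in 60.8% and 59.1% at 4 dpi, and 1.65, 1.47 and 1.80 UMIs per cell with a UMI at 1 dpi against 2.37 and 2.61 at 4 dpi. Both pairs of groups were apart, with a log2 change of 0.73 ± 0.10 SE in share (edgeR, adjusted p = 0.016) and 0.60 ± 0.10 SE in mean (limma, adjusted p = 0.0082). TOP2A had a UMI in 11.1%, 10.0% and 8.75% of cells at 1 dpi and in 23.8% and 22.0% at 4 dpi, a log2 change of 1.17 ± 0.20 SE (edgeR, adjusted p = 0.037). CENPF had a UMI in 17.7%, 20.7% and 12.5% of cells at 1 dpi and in 33.1% and 37.7% at 4 dpi, with no overlap but past no threshold (log2 change 1.07 ± 0.21 SE; edgeR, adjusted p = 0.051). The exact 95% binomial intervals of the shares of the genes named here reach at most 8.94 percentage points to either side, for counting error only.

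For UBE2C the mean was called and the share was not. It had a UMI in 16.4%, 17.9% and 13.1% of cells at 1 dpi and in 16.2% and 18.9% at 4 dpi, and the groups overlapped (log2 change 0.16 ± 0.22 SE; edgeR, adjusted p = 0.81). Where it was seen, it was seen at 1.62, 1.44 and 1.33 UMIs per cell at 1 dpi and at 2.71 and 2.87 at 4 dpi. That is a log2 change of 0.93 ± 0.10 SE (limma, adjusted p = 0.00054), the greatest of the members. AURKA had the same form, with a UMI in 10.2%, 17.1% and 7.50% of cells at 1 dpi and 13.1% and 11.3% at 4 dpi, and 1.57, 1.46 and 1.33 UMIs in those cells at 1 dpi against 2.71 and 2.17 at 4 dpi. TUBA1B was in 78.1% to 81.0% of cells at 1 dpi and in 84.9% to 89.2% at 4 dpi, where its share could rise little further, and its mean went from 3.78 to 4.81 UMIs at 1 dpi to 6.86 and 7.06 at 4 dpi. NCAPD2, TTK, CENPF and TOP2A were the other members called by the mean. TTK lay near 1 UMI at 1 dpi, at 1.10 to 1.20, and so did NCAPD2, at 1.16 to 1.38. The means of both are not read as changes. BUB1 also lay near 1 UMI, at 1.15 to 1.40 at 1 dpi and 1.14 to 1.33 at 4 dpi, and its mean is not read either. It had a UMI in 3.12% to 10.0% of cells at 1 dpi and in 11.5% and 13.8% at 4 dpi, which was not called (edgeR, adjusted p = 0.18).

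These calls at equal depth depended on the setting. The share call of TOP2A was not held in any of 10 alternatives, among them another random draw, with adjusted p between 0.085 and 0.46, and that of STMN1 was held in 5, between 0.0094 and 0.26. The mean call of UBE2C was held in 6 of 10, with adjusted p between 0.0012 and 0.62, and that of TUBA1B in 6. The change in mean of UBE2C was 0.19 with a mitochondrial maximum of 15% and 0.49 at 3000 UMIs, where its call was lost. That of AURKA was 0.31 with another random draw, against 0.74, and was then not called. Without library 10 the median log2 change of the members tested was 0.58 in share and 0.30 in mean, and without library 11 it was 0.46 and 0.21.

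**Figure D3:**
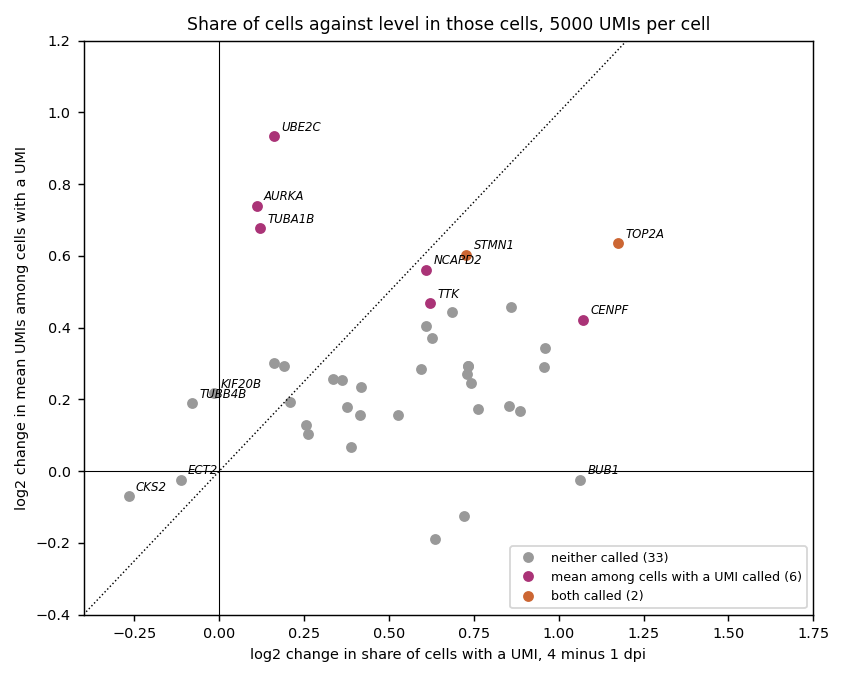
For the 41 genes tested by both measures at 5000 UMIs per cell, the log2 change between 1 and 4 dpi in the share of cells with a UMI (x axis) and in the mean UMIs of those cells (y axis), with the dotted line where they are equal. UBE2C, AURKA and TUBA1B lie high and near 0 on the x axis, and BUB1 lies at 1.06 on the x axis and -0.02 on the y axis.

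The members were next counted cell by cell, to see whether the rise lay in a subset of cells. At 5000 UMIs a cell had a UMI of 1 to 39 members at 1 dpi and 1 to 45 at 4 dpi, with library medians of 6.5, 7 and 6 at 1 dpi and 7 and 9 at 4 dpi. At least 10 members were found in 66 of 226 cells of library 6 (29.2%, exact 95% interval 23.4 to 35.6%), in 43 of 140 of library 7 (30.7%, 23.2 to 39.1%) and in 34 of 160 of library 8 (21.2%, 15.2 to 28.4%). At 4 dpi they were found in 51 of 130 cells of library 10 (39.2%, 30.8 to 48.2%) and in 67 of 159 of library 11 (42.1%, 34.4 to 50.2%). The 4 dpi libraries were both above the 1 dpi libraries, although the intervals of libraries 6 and 7 overlap with those of 4 dpi, and no test was made because the count is a score over the members. The difference of the group means was 13.6 percentage points, or 9.27 within flow cell A and 20.9 within flow cell B. Cells with 9 to 11 members, near the limit of 10, made up 8.46 to 19.5% of a library. Whether the cells form a range or separate types was not tested.

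Other limits gave the same order of the times. Cells with at least 20 members were 7.52%, 8.57% and 5.62% at 1 dpi and 16.2% and 16.4% at 4 dpi. Cells with at least 5 were 71.2 to 79.3% at 1 dpi and 80.0 and 87.4% at 4 dpi. Among cells with at least 10 members, the mean of all members together was 65.4, 69.3 and 64.4 UMIs per 10000 at 1 dpi and 90.4 and 91.1 at 4 dpi. In the cells below 10 members it was 16.5, 17.0 and 16.9 at 1 dpi and 21.2 and 24.3 at 4 dpi. The kinds are defined by these same transcripts, so the levels within them are a description and not a separate result. The 10% of cells richest in members held 33.3 to 37.0% of all members' UMIs in every library, with no separation by time.

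The mitochondrial share of the cells differed at 4 dpi when they were split at 10 members. In cells with at least 10 members the median share of mitochondrial UMIs was 11.0%, 11.6% and 10.1% at 1 dpi and 15.1% and 13.4% at 4 dpi. In cells with fewer it was 13.2%, 10.9% and 10.8% at 1 dpi and 9.99% and 10.7% at 4 dpi. The member-rich cells of 4 dpi thus had the higher share, by 5.11 and 2.65 percentage points, and those of 1 dpi did not differ in a common direction. Against cells with fewer than 3 members, as planned at first, the differences were -4.37, 0.03 and 0.23 points at 1 dpi and 9.84 and -4.78 at 4 dpi. At 4 dpi that comparison had no common direction and rested on 4 and 2 such cells. With cells of 15% or more mitochondrial UMIs left out, the cells with at least 10 members were 29.6%, 33.6% and 18.8% at 1 dpi and 35.4% and 33.7% at 4 dpi, a difference of 7.22 percentage points with library 11 barely above library 7. The part of the mitochondrial share in the rise was not tested beyond this.

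Cells rich in members also held more RNA, as the ERCC spike-in controls of the wells showed. The median number of human UMIs per ERCC UMI was 128, 130 and 72.9 in the member-rich cells of 1 dpi and 153 and 65.9 in those of 4 dpi. In cells with fewer than 10 members it was 97.1, 124 and 53.1 at 1 dpi and 89.8 and 40.5 at 4 dpi, so that the ratio of the kinds was 1.31, 1.04 and 1.37 at 1 dpi and 1.70 and 1.63 at 4 dpi. The comparison planned at first, with cells of fewer than 3 members, had only 18, 6, 9, 4 and 2 cells in libraries 6, 7, 8, 10 and 11. It gave ratios of 1.48, 1.13, 2.27, 1.04 and 0.669. Transcripts of the S phase genes were also more frequent in the member-rich cells, at 31.4 to 40.0 UMIs per 10000 against 14.2 to 17.0 in the others, in all 5 libraries.

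Within each library, the levels of most members tended to be higher in cells where the other members together were higher. For each member, Pearson's r was taken over the thinned cells of a library between its log level and the summed others, and the median over the 5 libraries was used, as a description of 130 to 226 cells per library that share a plate and a fixed depth. It could be had for 46 members, since CDC25C and CDCA3 had no UMI in some libraries, and 37 of the 46 had a median r above 0.3. MKI67 (0.54), CENPF (0.52), CDK1 (0.51) and PRC1 (0.50) were the highest, which are the genes whose promoters are printed above. The lowest were CDC25B (0.12), BUB3 (0.17), CENPA (0.22) and UBE2S (0.24). CDC25B, BUB3 and UBE2S were also spread more evenly over cells, and the 10% of cells richest in the other members held 17.3%, 18.5% and 20.7% of their UMIs. For KIF20A those cells held 81.0%, and for GTSE1 66.7%, though both had few UMIs. Among the 1035 pairs of members the median r was 0.23, with 266 pairs above 0.3 and 8 below 0. The highest pairs were CENPF with PLK1 (0.52), TOP2A with UBE2C (0.50) and MKI67 with CENPF (0.49), followed by CCNB2 with PLK1 (0.48). AURKA and TPX2, its activator, reached 0.47, and CCNB1 and CCNB2 reached 0.46.

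Of 6631 other genes seen in at least 10% of cells, those whose levels over cells were most like the summed members are named here. NEK2, a centrosomal kinase, had the highest median r (0.51), followed by ASPM, a spindle pole protein (0.47), the kinesin KIF14 (0.43), the phosphatase CDKN3 (0.42) and the histone variant gene H2AFZ (0.42). Also among the 15 highest were RRM2, ASF1B, HMGB1, TUBB, NCAPH, MCM7, HMGB2, RRM1 and KIF18A, with 0.37 to 0.41. Of the 15, 7 were on the list of other G2 and mitosis genes and 4 on that of S phase genes. Between 1 and 4 dpi 12 of them rose (edgeR), against 13.4% of all genes tested. They were picked for following the members, which rose, so that count is not separate support. The median over all 6631 genes was -0.0063. At the other end lay EIF1 (-0.27), FHL2 (-0.25), ZFAS1 (-0.25), EPB41L4A-AS1 (-0.25) and VEGFA (-0.24), of which FHL2 fell at 4 dpi by a log2 change of -1.05. These r are descriptions, and weak ones in sparse counts are no finding.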

How the data were processed

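Single SW480 cells of 5 SORT-seq plates (3 of 1 dpi, 2 of 4 dpi) were analysed, 1 plate being 1 sample. The authors sequenced CEL-Seq2 libraries on a NextSeq, read barcodes and UMIs from read 1, mapped read 2 with BWA (version not given in the sources used here; hg38 in the submitters' processing notes) to the human transcriptome, and deposited UMI counts for every gene and well, not normalized. The libraries held 4487175 to 7632953 human UMIs, and 57 ERCC controls took 1.30% to 3.57% of UMIs; ERCC counts entered only the filter on cells and the ratio of human to ERCC UMIs. Genes had to be seen in 10 or more wells (15028 were), and a kept well had over 2000 genes and under 25% mitochondrial UMIs, which left 533 cells at 1 dpi and 293 at 4 dpi, the numbers that the study states. Doublets were not looked for, since wells were filled with 1 cell by sorting. Counting 3′ ends carries no length factor.

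Summed UMIs of each library went into edgeR 4.0.16 (TMM, quasi-likelihood); log2 changes and SE are from that fit. At equal depth (5000 UMIs per cell, a fixed random seed), the number of cells with a UMI was tested with edgeR with the cell number as offset, for genes in at least 5% of cells, and log2 mean UMIs among such cells with limma 3.58.1, for genes with at least 5 such cells in every library. All fits were adjusted over all genes (Benjamini-Hochberg). They were also run on simulated data, but for the share and the mean the changed genes were drawn from genes more widely detected than many members. That check does not cover the scarce members. DESeq2 1.42.0 was an alternative. Intervals cover counting error only. R 4.3.3 and Python 3.11.15 were used. With 3 against 2 libraries, an exact permutation test of a single value cannot go below 0.1, so none was used. Flow cells A (libraries 6, 7, 10) and B (8, 11) are those named for the sequencing runs. No well columns of other samples were present. The members and lists were chosen with earlier results of these data known. Values are given in every library for the 6 greatest called rises and for the most and least abundant member of each role, and for other members where they help; of the comparison lists, the greatest called rise and fall are named. The comparison with cells of fewer than 10 members was added after seeing the data. The value of 1 gene that the naming rule selects is not reported here.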

Additional observations from a re-analysis of the deposited data

How the results depend on the processing

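For summed UMIs, 33 to 45 members rose and 0 fell under all 16 alternatives (DESeq2, other scalings, filters and depths, a flow-cell term, each library left out), and no alternative reversed any of the 44 rises. CDCA3 was tested in only 15 of the 16. With library size alone the split was 45 against 0. With a mitochondrial maximum of 15% the median log2 change was 0.7338. Of the 4 members not called, BUB3 stayed positive and the others changed sign: ECT2 was at -0.1194 with cells thinned to 5000 UMIs and -0.0150 with no mitochondrial maximum, and TUBB4B at 0.0742 when thinned and 0.0057 with library size alone. With libraries left out in turn, ECT2 ranged from -0.2649 to 0.2831, CKS2 from -0.2688 to 0.1282 and TUBB4B from -0.1867 to 0.1247.

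For the share of cells, 3 members were called at 3000 UMIs, 1 with another random seed, and 0 with cells thinned to 10000 UMIs, unthinned or with a mitochondrial maximum of 15% (edgeR). The median log2 change of the members that passed the filter was 0.3143 with that maximum and 0.1706 unthinned. Leaving out a library gave 0 to 1 calls. The share of AURKA changed by -0.0507 at 10000 UMIs, by -0.1147 unthinned and by -0.0840 to 0.4146 with libraries left out, that of UBE2C by -0.2785 unthinned and that of TTK by -0.3313 with the 15% maximum, all uncalled. For the mean among cells with a UMI, 2 members were called at 3000 UMIs, 13 unthinned and 0 to 3 with a library left out. Its median was 0.1605 at 3000 UMIs, 0.2254 at 10000, 0.1702 with the 15% maximum, 0.4315 unthinned and 0.2138 to 0.3030 with a library left out, and NCAPD2 was at -0.0708 at 3000 UMIs. A library of 4 dpi left alone was assumed to vary like the others.

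The difference in cells with at least 10 members was 3.6185 percentage points unthinned, where the deeper library 7 exceeded library 11, and 7.2193 with the 15% maximum. At 3000 UMIs fewer members could be tested, 39 by share and 35 by mean. The cause of the other shifts was not tested. The labels give the groups no shared replicate numbers to pair on; with flow cell as a term, which crosses the times, 44 members rose in summed UMIs. Shares of genes seen in few cells rest on few counts, and at this depth small changes of single genes were not detectable.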
